A study of Mus musculus with 3 samples.

Results

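The receptor and core polarity part of planar polarity signalling is described here through 10 genes. These are the Wnt receptor genes Ror1, Ror2 and Ryk, the co-receptor gene Ptk7, and the polarity genes Vangl1, Vangl2, Celsr1, Celsr2, Celsr3 and Prickle1. The genes were taken by symbol from a table of 51826 genes, and their 42 transcripts by gene identifier from a table of 128622 transcripts. All 10 genes, and 28 of the 42 transcripts, reached 20 counts in at least 1 library, as did 18074 genes and 47794 transcripts in all. RNA was sequenced from spinal cord of C57BL/6 mouse embryos at embryonic day 13.5, with 1 library for each of 3 genotypes. The wild-type library (WT) was set against a gain-of-function deletion of Ctnnb1 exon 3 (dE3) and a loss-of-function deletion of Ctnnb1 exons 2 to 6 (cKO), both made with Nestin-Cre. Nestin-Cre acts in neural progenitors and their progeny, so cells of other origin in the tissue are not its main target. The labels give neither the number of embryos in a library nor whether the wild type carried Cre.

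Planar polarity signalling works without β-catenin-driven transcription. Wnt5a and related ligands bind Frizzled receptors together with Ror1, Ror2, Ryk or Ptk7, and the signal passes through Dishevelled to small GTPases and kinases of the cytoskeleton. On facing cell membranes, Celsr cadherins bridge neighbouring cells, while Vangl and Prickle proteins gather on one side and Frizzled and Dishevelled on the other. In the embryonic cord these genes are known for closing the neural tube and for steering commissural axons along the body axis once they have crossed the midline.

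Depth was similar, with estimated counts summing to 32167470 for WT, 34790053 for dE3 and 33048837 for cKO. A ratio between libraries is a ratio of counts scaled to library size (CPM, counts scaled to a common library size), and the range after it is its exact 95% counting interval. Calls required a difference of 2-fold or more whose interval did not reach 1. With 1 library per genotype there is no spread between replicates, so no p-value is given, the intervals cover counting error only, and the values compare libraries. The deleted gene Ctnnb1 stood at 544 (WT), 461 (dE3) and 422 (cKO) CPM. Exons outside the deletions are in that total, which makes it a partial check of the labels. All 8 neuron markers and all 8 neural progenitor markers examined were detected in each library. The summed neuron markers stood at 5435 (WT), 5306 (dE3) and 5499 (cKO) CPM, and the progenitor markers at 1462, 1373 and 1230 CPM. Neuron markers had a median log2 ratio to WT of -0.29 in dE3 (2 above 0) and -0.08 in cKO (3 above 0). Progenitor markers had medians of -0.003 in dE3 (4 above 0) and -0.31 in cKO (1 above 0). Against WT, 1 progenitor marker was called higher and 2 lower in dE3, and 0 in cKO. No neuron marker was called against WT. The cKO library carries a tag in its name that differs from the one shared by WT and dE3, and this cannot be told apart from its genotype.

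Sequences of 2 kinds are given beside the results. Ror1 and Ror2 were the members past 2-fold, so the 250 bases before their start sites are shown (RefSeq, GRCm38.p6, read on the strand of the gene). Capitals mark matches to CTTTGA or CTTTGT on either strand, short forms of the site that TCF/LEF factors bind. The Ror1 window is chr4:100095541-100095790 (plus strand) and the Ror2 window chr13:53286125-53286374 (minus strand).
Ror1: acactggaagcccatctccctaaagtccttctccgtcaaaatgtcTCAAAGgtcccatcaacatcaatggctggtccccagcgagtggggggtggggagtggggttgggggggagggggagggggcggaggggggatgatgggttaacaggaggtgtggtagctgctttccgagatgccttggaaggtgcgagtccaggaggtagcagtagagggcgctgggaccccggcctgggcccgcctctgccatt
Ror2: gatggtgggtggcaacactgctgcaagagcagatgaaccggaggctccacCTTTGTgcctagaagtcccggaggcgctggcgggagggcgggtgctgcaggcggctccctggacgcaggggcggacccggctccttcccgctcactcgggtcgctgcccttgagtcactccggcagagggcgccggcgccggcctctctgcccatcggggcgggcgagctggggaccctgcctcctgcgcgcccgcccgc

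Both windows held 1 match. That of Ror1 was to CTTTGA, on the opposite strand and 199 bases before the start, and that of Ror2 was to CTTTGT, 194 bases before it. Of the 8 members with a promoter entry, these 2 held a match. That share is near the share of all windows. Of 32851 promoter windows of the same length, 27.6% held one of the pair (13.8% CTTTGA and 16.5% CTTTGT). A match in these letters is a description and not a binding site.

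Prickle1 has 2 promoters, and the RNA of the second one differed between the libraries, so both windows are shown. The distal window, chr15:93595903-93596152, precedes transcript Prickle1-201, and the proximal window, chr15:93519521-93519770, precedes Prickle1-202 (both on the minus strand, with no capitals because neither held a match).
Prickle1 distal: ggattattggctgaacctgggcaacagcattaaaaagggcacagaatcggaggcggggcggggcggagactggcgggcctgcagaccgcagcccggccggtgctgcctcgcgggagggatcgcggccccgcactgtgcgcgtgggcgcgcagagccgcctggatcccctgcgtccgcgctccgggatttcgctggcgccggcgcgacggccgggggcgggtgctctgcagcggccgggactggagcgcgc
Prickle1 proximal: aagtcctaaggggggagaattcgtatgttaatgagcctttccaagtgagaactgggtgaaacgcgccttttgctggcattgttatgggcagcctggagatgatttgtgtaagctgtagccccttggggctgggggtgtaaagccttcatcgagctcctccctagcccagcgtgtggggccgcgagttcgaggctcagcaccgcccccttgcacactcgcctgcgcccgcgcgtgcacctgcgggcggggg

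The distal window was 74.0% G and C with 34 CpG pairs, and the proximal window 60.8% with 16. The medians over all promoter windows were 52.4% and 6 CpG pairs.

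In the deposited tables (GRCm38) the receptor genes lie on 4 chromosomes. Ror1 (ENSMUSG00000035305) spans chr4:100095791-100444765 and Ryk (ENSMUSG00000032547) chr9:102834917-102908305, both on the plus strand. Ror2 (ENSMUSG00000021464) spans chr13:53109312-53286124 and Ptk7 (ENSMUSG00000023972) chr17:46564451-46629504, both on the minus strand. Among the core genes, Vangl1 (ENSMUSG00000027860) spans chr3:102153583-102204693, Vangl2 (ENSMUSG00000026556) chr1:172000960-172028444, Celsr1 (ENSMUSG00000016028) chr15:85898758-86033777, Celsr2 (ENSMUSG00000068740) chr3:108390851-108415552 and Prickle1 (ENSMUSG00000036158) chr15:93499114-93595891, all on the minus strand. Celsr3 (ENSMUSG00000023473) spans chr9:108826320-108852969 on the plus strand.

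Levels can be compared between genes only per transcript length, which the deposited TPM values provide. Vangl2, the membrane protein gene whose loss leaves the neural tube open, was the most abundant member in each library, at 146 TPM in WT, 134 in dE3 and 132 in cKO. Celsr2 followed at 113, 123 and 113 TPM, and Celsr3 at 85.7, 84.8 and 82.0 TPM. These are adhesion cadherin genes with several membrane passes, and the ranges of Vangl2, Celsr2 and Celsr3 over the libraries did not overlap. Ryk, a receptor without an active kinase that repels axons from Wnt sources, stood at 59.6 TPM in WT, 68.7 in dE3 and 56.6 in cKO. Ptk7, which encodes a co-receptor with an inactive kinase domain, stood at 45.0, 73.3 and 61.8 TPM, so that Ryk was above it in WT and below it in both mutant libraries.

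The other 5 members were less abundant. Prickle1, a cytoplasmic LIM domain protein gene that binds Vangl, stood at 18.7, 17.1 and 22.2 TPM in WT, dE3 and cKO. Celsr1 stood at 15.3, 18.3 and 15.3 TPM, within reach of the Prickle1 range. Vangl1, the close relative of Vangl2, stood at 5.27, 6.48 and 7.56 TPM. Ror2 ran from 3.87 TPM in WT through 8.69 in cKO to 14.6 in dE3, a range that spans that of Vangl1. Ror1 was lowest in each library, at 1.83, 4.22 and 2.73 TPM. From the lowest to the highest library the TPM of Celsr3 differed 1.04-fold and that of Ror2 3.76-fold.

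**Figure D1:**
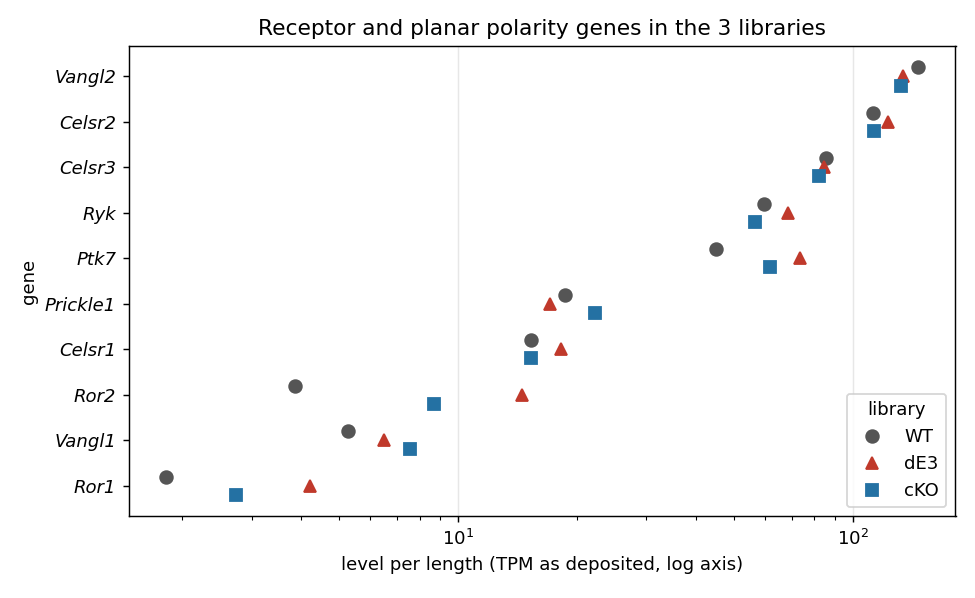
Deposited TPM (horizontal, log axis) of the 10 genes (vertical), with 1 point per library and no error bar because each genotype has 1 library. Vangl2 lies at 132 to 146 TPM and Ror1 at 1.83 to 4.22 TPM, and the points of Ror1, Ror2 and Ptk7 lie farthest apart on the log axis.

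Ror1 and Ror2, which encode receptor tyrosine kinases for Wnt5a, were higher in dE3 than in WT, and Ror2 was also higher in cKO than in WT. Ror2 had 199 (WT), 815 (dE3) and 452 (cKO) counts, or 6.23, 23.3 and 13.7 CPM. The dE3 library was highest, WT lowest and cKO between them. Its ratio was 3.73 (3.19 to 4.38) for dE3 against WT, 2.20 (1.86 to 2.61) for cKO against WT and 1.70 (1.51 to 1.91) for dE3 against cKO. Ror1 had 138 (WT), 342 (dE3) and 211 (cKO) counts, or 4.32, 9.76 and 6.39 CPM. The libraries stood in the order seen for Ror2. Its ratio was 2.26 (1.85 to 2.77) for dE3 against WT, 1.48 (1.19 to 1.85) for cKO against WT and 1.53 (1.28 to 1.82) for dE3 against cKO.

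Ptk7 showed the same order of libraries with smaller ratios, none of them past 2-fold, though that for dE3 against WT passes a threshold of 1.5. It had 2487 (WT), 4373 (dE3) and 3512 (cKO) counts, or 77.8, 125 and 106 CPM. The ratio was 1.60 (1.53 to 1.68) for dE3 against WT, 1.37 (1.30 to 1.44) for cKO against WT and 1.17 (1.12 to 1.23) for dE3 against cKO. Ryk had 1938, 2418 and 1892 counts, or 60.7, 69.0 and 57.3 CPM in WT, dE3 and cKO. Its ratio was 1.14 (1.07 to 1.21) for dE3 against WT and 0.945 (0.886 to 1.01) for cKO against WT, so the cKO interval held 1. Over these 4 receptor genes the median log2 ratio was 0.93 for dE3 against WT and 0.51 for cKO against WT, where that of all 18074 measured genes was 0.00 in both.

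The 6 Vangl, Celsr and Prickle genes had no member past 2-fold in any of the 3 comparisons. Their median log2 ratio was 0.03 for dE3 against WT, 0.01 for cKO against WT and 0.01 for dE3 against cKO. Celsr1, which acts in neural tube closure and epithelial polarity, had 2199 (WT), 2831 (dE3) and 2263 (cKO) counts, or 68.8, 80.8 and 68.5 CPM. Only the dE3 library stood higher, with a ratio to WT of 1.17 (1.11 to 1.24). Celsr2 had 12355, 14468 and 12613 counts, or 387, 413 and 382 CPM, and a ratio of 1.07 (1.04 to 1.09) for dE3 against WT. Celsr3, which guides axon tracts, had 9931, 11070 and 9459 counts, or 311, 316 and 286 CPM. Its ratio for dE3 against WT, 1.02 (0.989 to 1.04), had an interval that held 1, and that for cKO against WT was 0.922 (0.896 to 0.948).

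Vangl2 had 6820 (WT), 7175 (dE3) and 7179 (cKO) counts, or 213, 205 and 217 CPM. The ratio to WT was 0.959 (0.928 to 0.992) in dE3 and 1.02 (0.985 to 1.05) in cKO. The side on which cKO lay depended on the unit. Its log2 ratio to WT was -0.15 by the deposited TPM (log2 of TPM plus 0.1) and 0.03 from counts. Vangl1 had 395, 445 and 458 counts, or 12.4, 12.7 and 13.9 CPM. With ratios to WT of 1.03 (0.895 to 1.18) and 1.12 (0.978 to 1.29), a difference in Vangl1 was not detectable at this depth. By the deposited TPM the Vangl1 ratios were larger, at 0.29 on the log2 scale in dE3 and 0.51 in cKO (log2 of TPM plus 0.1), against 0.04 and 0.17 from counts. Prickle1 had 994, 986 and 1219 counts, or 31.1, 28.1 and 36.9 CPM. It was the member whose 2 mutant libraries lay on opposite sides of WT with intervals that excluded 1, at 0.904 (0.827 to 0.989) in dE3 and 1.19 (1.09 to 1.29) in cKO, and its ratio for dE3 against cKO was 0.762 (0.70 to 0.830).

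**Figure D2:**
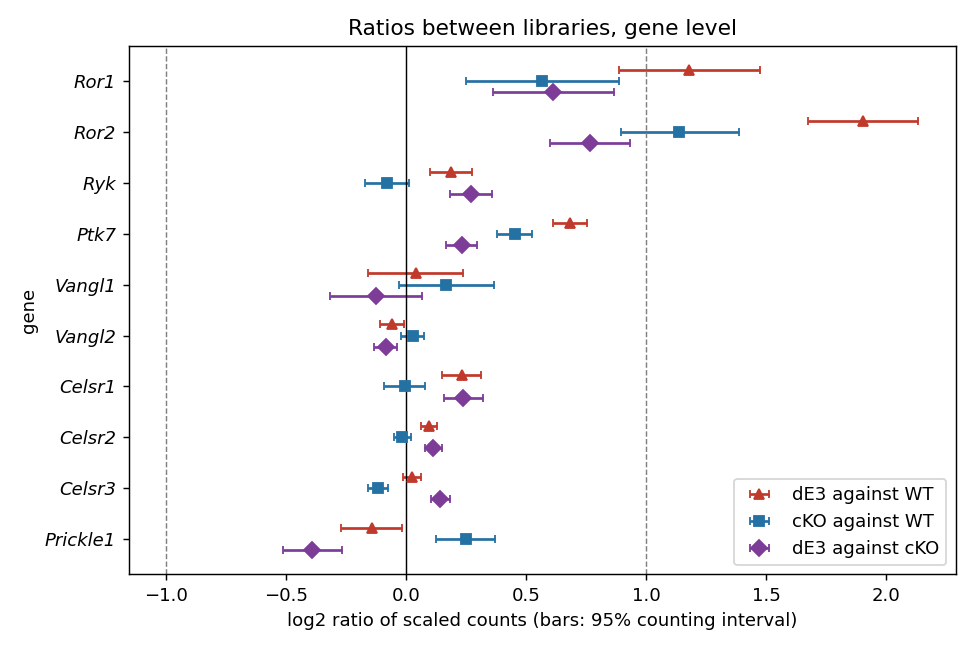
Log2 ratios of scaled counts (horizontal) for the 10 genes (vertical) in the 3 comparisons, with bars for the 95% counting interval and dashed lines at 2-fold. Ror2 in both mutants and Ror1 in dE3 lie past the dashed line against WT, while the 6 Vangl, Celsr and Prickle genes lie within it.

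In all, 2 of the 10 genes were called higher and 0 lower for dE3 against WT, where 6.52% of all measured genes were called higher and 3.78% lower (10.3% in all). For cKO against WT 1 was called higher and 0 lower, against 3.5% and 3.41% of all genes (6.91% in all). For dE3 against cKO 0 of 10 were called in either direction, against 6.62% and 4.38% (11.0% in all). A single call among 10 genes is near the share of all genes called. The median log2 ratio of the 10 genes was 0.14 for dE3 against WT, 0.10 for cKO against WT and 0.19 for dE3 against cKO, beside 0.00, 0.00 and 0.02 over all measured genes. The comparisons share libraries.

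Some lists of markers of tissue outside the neural tube were also higher in both mutant libraries, where Ror1, Ror2 and Ptk7 were higher, and others were not. Ror2 and Ror1 are known from mesenchyme and cartilage as well as from the nervous system. The 12 mesenchyme and meninges markers, none at 0 in any library, summed to 714 (WT), 1343 (dE3) and 1584 (cKO) CPM. Of them 5 were called higher in dE3 and 4 in cKO, and 0 lower. The 10 cartilage markers, none at 0, summed to 157, 907 and 417 CPM, with 10 called higher in dE3 and 7 in cKO. Of the 10 skeletal muscle markers, 9 were measured, and all 9 were called higher in dE3 and 7 in cKO. Their sum was 14.1, 183 and 47.4 CPM, with Myf5 and Tnni1 at 0 in WT. The 6 epidermis markers summed to 8.51, 20.3 and 9.69 CPM, the 5 endothelium markers to 174, 194 and 252 CPM and the 6 dorsal root ganglion markers to 287, 225 and 523 CPM. None of these 17 markers was at 0 in any library. Of them, 4 epidermis markers were called higher in dE3 and 2 dorsal root ganglion markers higher in cKO, and no endothelium marker was called against WT. Thus the summed cartilage, muscle and epidermis markers stood in the library order of the 3 receptor genes, lowest in WT and highest in dE3. For cKO against WT the epidermis list was split, with 3 of 6 markers above 0, 0 called and a median log2 ratio of 0.19. All 10 cartilage and all 9 measured muscle markers lay above 0 there. The mesenchyme, endothelium and dorsal root ganglion sums were highest in cKO, and the dorsal root ganglion sum was lower in dE3 than in WT. Marker by marker, the mesenchyme list did not place cKO above dE3. Its middle log2 value against WT was 0.95 for dE3 (12 markers above 0) and 0.82 for cKO (11 above 0). When dE3 was set against cKO, 2 mesenchyme markers were called higher and 0 lower. In that comparison 6 of the 12 lay above 0, with a median of 0.03.

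The part of these tissues in the receptor ratios was not tested. In bulk RNA, a change in the number of cells of a type and a change in RNA per cell cannot be told apart.

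**Figure D3:**
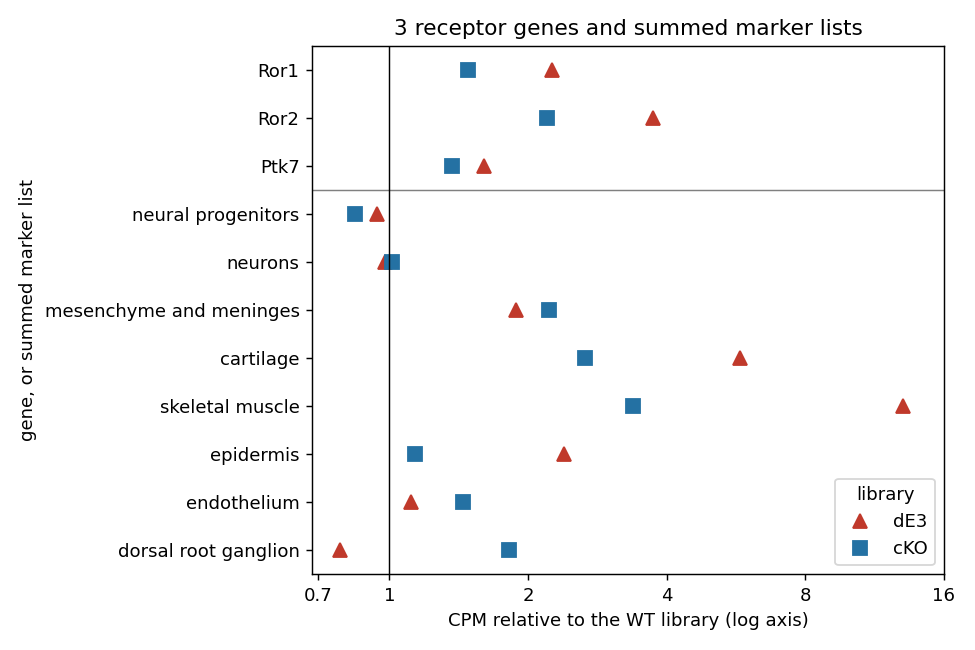
CPM relative to the WT library (horizontal, log axis) for Ror1, Ror2 and Ptk7, above the line, and for the summed CPM of 8 marker lists, below it, with 1 point per mutant library and no error bar. Ror2 lies at 3.73 in dE3 and 2.20 in cKO, and the sum of the neuron list lies close to 1 in both.

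Likeness over the 3 libraries was measured as the distance between pairs of log2 ratios to WT, among genes with a mean of at least 10 CPM. Genes with Gm-number, Rik, mt- or ribosomal protein symbols were left out, as were genes without counts in a library. The genes nearest to Ror1 were Fn1, which encodes the matrix protein fibronectin, then Tcf4 and Suz12. Despite its symbol, Tcf4 is a basic helix-loop-helix factor gene and not a member of the TCF/LEF family. Fn1 stood at 141 (WT), 316 (dE3) and 206 (cKO) CPM, at a distance of 0.0264. The genes nearest to Ror2 were the collagen gene Col27a1, the matrix gene Tgfbi and the amino acid transporter gene Slc38a4. Col27a1 stood at 10.01, 35.2 and 23.3 CPM, at a distance of 0.121. With 3 libraries many genes share such a pattern, and 10381 genes were ranked for Ror1.

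Transcript estimates split several members in ways the gene totals do not show. At this level 4 of 28 measured transcripts were called higher and 2 lower for dE3 against WT, where 13.4% and 11.0% of all measured transcripts were called (24.3% in all). For cKO against WT 6 were called higher and 3 lower, against 11.4% and 12.7% of all transcripts (24.0% in all). For dE3 against cKO 3 were called higher and 3 lower, against 15.6% and 11.7% (27.3% in all). Calls were thus far more frequent among all transcripts than among all genes. Reads that transcripts share were divided by estimation, and the intervals do not cover that step.

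Prickle1 transcripts from its 2 start sites differed in share between the libraries. Prickle1-202, which begins at the proximal promoter, had 8 (WT), 198 (dE3) and 252 (cKO) counts. Its share of the gene was 0.805% (exact 95% interval 0.348 to 1.58) in WT, 20.1% (17.6 to 22.7) in dE3 and 20.7% (18.4 to 23.1) in cKO. WT stood apart from both mutant libraries, with ratios to WT of 22.6 (11.2 to 53.0) in dE3 and 30.5 (15.2 to 71.4) in cKO. Prickle1-201, from the distal promoter, had 986, 788 and 967 counts, and ratios to WT of 0.729 (0.663 to 0.801) and 0.949 (0.867 to 1.04). The pair share the whole coding sequence of 2496 bases and differ by 201 bases found only in Prickle1-201 and 260 found only in Prickle1-202. The estimate therefore rests on these stretches of the 5′ part of the RNA.

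Ror2 also has 2 first exons, and the calls above rest on one of them. Ror2-201, the longer form, had 156 (WT), 814 (dE3) and 389 (cKO) counts, with ratios to WT of 4.76 (4.0 to 5.68) and 2.41 (2.0 to 2.92). Ror2-202 had 43 (WT), 1 (dE3) and 62 (cKO) counts. Its share of the gene was 21.6% (16.1 to 28.0) in WT, 0.123% (0.00311 to 0.682) in dE3 and 13.7% (10.7 to 17.2) in cKO. The ratio of WT to dE3 was 47.2 (8.03 to 1906), and that of cKO to WT 1.40 (0.930 to 2.11). Between the 2 forms, 344 exon bases lie only in Ror2-201 and 89 only in Ror2-202. The split is an estimate that rests on these stretches. The Ror2-201 start codon lies in chr13:53285781-53285877 and that of Ror2-202 in chr13:53285466-53285526, both on the minus strand. The coding bases of these exons are shown because they are all that separates the 2 coding sequences (GENCODE vM21, GRCm38).
Ror2-201: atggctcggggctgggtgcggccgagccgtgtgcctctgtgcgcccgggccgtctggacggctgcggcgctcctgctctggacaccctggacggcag
Ror2-202: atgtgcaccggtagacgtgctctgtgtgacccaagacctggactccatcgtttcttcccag

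The first stretch has 97 bases and the second 61, and coding lengths are 2832 bases for Ror2-201 and 2796 for Ror2-202.

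Vangl2 differed little as a gene, while 2 of its transcripts were called in cKO against WT. Vangl2-202, with a longer upstream exon part and the same coding sequence as the main form, had 484 (WT), 506 (dE3) and 1479 (cKO) counts. Its share was 7.10% (6.50 to 7.73), 7.05% (6.47 to 7.67) and 20.6% (19.7 to 21.6), and the ratio of cKO to WT was 2.96 (2.67 to 3.28). Vangl2-203 had 255 (WT), 306 (dE3) and 0 (cKO) counts, where a count of 0 allows a share of up to 0.0418% of the gene. Taking a floor of 3 counts in the cKO library, it was 87.8-fold lower there than in WT. That value leaves out the counting error of the 255 WT counts and the division of shared reads. The main form, Vangl2-201, had 5425, 5812 and 5160 counts, and a ratio of cKO to WT of 0.920 (0.886 to 0.956). Vangl2-203 carries an extra coding exon of 120 bases (40 codons) at chr1:172008799-172008918 on the minus strand, shown here as the exon of the transcript at 0 in cKO.
Vangl2-203 exon: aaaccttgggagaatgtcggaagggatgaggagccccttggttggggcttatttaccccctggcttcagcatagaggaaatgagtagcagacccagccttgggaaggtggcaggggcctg

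Vangl2-201 lacks that exon, but Vangl2-203 had 0 bases that no other transcript of the gene covers, and 1 splice junction of its own.

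Ryk differed in its minor forms. The main form, Ryk-203, had 1686 (WT), 1969 (dE3) and 1639 (cKO) counts, at 87.0%, 81.4% and 86.6% of the gene. Ryk-201 had 77, 221 and 207 counts, so that both mutant libraries stood above WT, with ratios of 2.62 (2.01 to 3.44) in dE3 and 2.60 (1.99 to 3.42) in cKO. Ryk-204, annotated as subject to nonsense-mediated decay, had 155, 208 and 29 counts. Its ratio of dE3 to WT was 1.22, with an interval that held 1 (0.989 to 1.52), and it was 5.52-fold lower in cKO than in WT (3.70 to 8.52). Ryk-203 holds 9 coding bases that Ryk-201 lacks, at chr9:102885994-102886002 on the plus strand, in capitals between 21 bases on each side.
Ryk-203: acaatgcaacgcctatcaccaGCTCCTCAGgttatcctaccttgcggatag

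Ryk-201 had 0 bases and 0 junctions that no other counted Ryk transcript holds, so its count is among the least certain of these estimates.

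**Figure D4:**
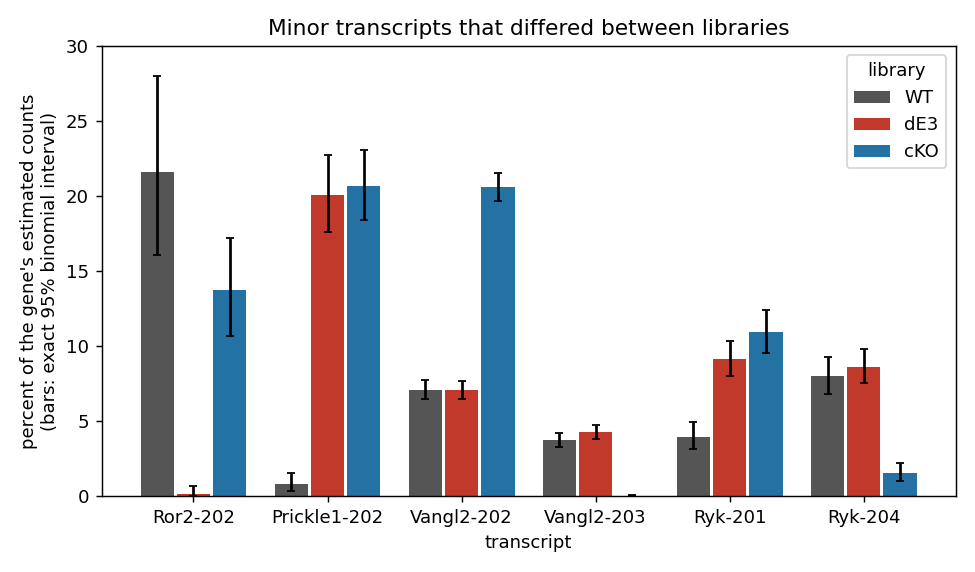
Share of the gene's estimated counts (vertical, percent, from 0) for 6 minor transcripts (horizontal) in the 3 libraries, with bars for the exact 95% binomial interval, which covers counting error only. Prickle1-202 is below 1% in WT and near 20% in both mutants, Ror2-202 is near 0 in dE3, and Vangl2-203 is at 0 in cKO.

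The large Celsr transcripts were steadier. Celsr2-201 held 94.3%, 94.7% and 94.4% of the Celsr2 counts in WT, dE3 and cKO. Celsr3-201 held 72.8%, 73.0% and 67.9% of the Celsr3 counts, and Celsr3-207, which adds 24 coding bases in 3 places, 25.7%, 25.9% and 30.2%. The ratio of cKO to WT was 0.860 (0.831 to 0.889) for Celsr3-201 and 1.08 (1.03 to 1.14) for Celsr3-207. Celsr1, Ptk7 and Ror1 had 1 transcript each in the deposited tables. No member shared more than 0.481% of its 50-base words with another gene, and no overlapping gene shared more than 0.539% of a member's exonic bases.

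A list of 40 other genes of the pathway, all measured, was examined by role. Of these, 2 were called higher and 1 lower for dE3 against WT, 1 higher and 0 lower for cKO against WT, and 1 higher and 1 lower for dE3 against cKO. The medians of the log2 ratio were 0.00, -0.07 and 0.07. Each of these counts is a smaller share of the list than the share of all measured genes called in that comparison.

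The ligand genes Wnt5a and Wnt11 and the core gene Prickle4 were the 3 genes called. Wnt5a, the ligand of Ror1 and Ror2, had 909 (WT), 2299 (dE3) and 750 (cKO) counts, or 28.4, 65.6 and 22.7 CPM. It was 2.31-fold higher in dE3 than in WT (2.13 to 2.49) and 2.89-fold higher than in cKO (2.66 to 3.14). It stood below WT in cKO, where Ror1 and Ror2 stood above, at 0.798 (0.724 to 0.880). Wnt11, another ligand of the pathway, had 65, 162 and 98 counts and was 2.27-fold higher in dE3 (1.69 to 3.08). Cthrc1, which encodes a secreted protein that binds Wnt and Ror2, stood at 10.5, 19.3 and 19.7 CPM, with ratios to WT of 1.83 (1.61 to 2.10) and 1.87 (1.64 to 2.14).

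Apart from Wnt5a, Wnt11 and Prickle4, no gene of the list was called, whether Frizzled, Dishevelled, Fat, trafficking, cilium or cytoskeletal. Dvl3, the most abundant Dishevelled gene, had a ratio of 1.26 (1.21 to 1.31) for dE3 against WT and 1.01 (0.969 to 1.06) for cKO against WT. Fjx1, a Golgi kinase gene of the Fat and Dachsous system, had 1.27 (1.22 to 1.32) and 0.954 (0.914 to 0.995). Scrib, a polarity scaffold gene, had 1.06 (1.02 to 1.11) and 0.864 (0.825 to 0.904), and Gipc1, a trafficking adaptor gene, 1.04 (0.982 to 1.10) and 1.15 (1.09 to 1.21). Cdc42, a small GTPase gene and the most abundant of the list, had 1.01 (0.988 to 1.04) and 0.966 (0.943 to 0.991). Fuz, the most abundant of the 4 cilium effector genes, had 0.997 (0.870 to 1.14) and 0.655 (0.560 to 0.766).

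Other genes of the list lay past 1.5-fold without reaching 2-fold, and are named here after their values were seen. For dE3 against WT these were the Frizzled receptor gene Fzd7 at 1.67 (1.56 to 1.78), the formin gene Daam2 at 0.617 (0.585 to 0.649) and the JNK gene Mapk10 at 0.579 (0.556 to 0.602), besides Cthrc1. For cKO against WT they were Intu at 0.613 (0.547 to 0.686) and the ubiquitin ligase gene Smurf1 at 0.652 (0.622 to 0.683), besides Cthrc1 and Fuz. For dE3 against cKO they were Fuz at 1.52 (1.31 to 1.77) and Fzd7 at 1.52 (1.43 to 1.62). Wnt11, called only for dE3 against WT, stood at 1.56 (1.20 to 2.02) in that comparison with cKO.

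Prickle4 was the one list gene called in opposite directions, on few counts. It had 17 (WT), 7 (dE3) and 43 (cKO) counts. It was 2.66-fold lower in dE3 than in WT (1.05 to 7.60), with an interval that nearly reached 1, and 2.45-fold higher in cKO (1.37 to 4.58).

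**Figure D5:**
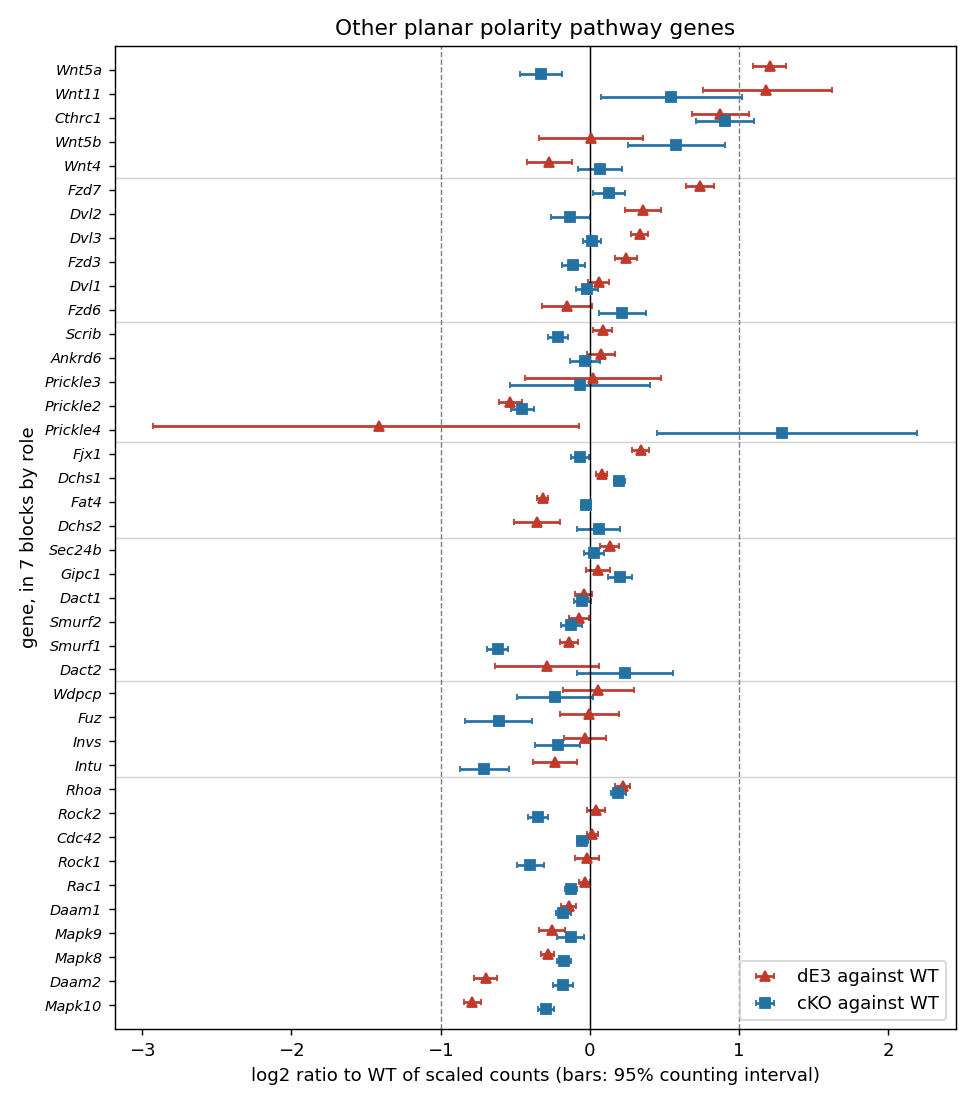
Log2 ratio to WT of scaled counts (horizontal) for 40 other pathway genes (vertical, in 7 blocks by role), with bars for the 95% counting interval and dashed lines at 2-fold. Wnt5a and Wnt11 in dE3 and Prickle4 in both mutants lie past a dashed line.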

How the data were processed

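Sequencing libraries came from a VAHTS mRNA kit, per the labels' protocols. CASAVA, Bowtie2 2.3.2 and GRCm38.p6 are named in the submitters' processing notes, without roles. No quantification tool is named, and the annotation release and strand setting were not given in the sources used here. The authors deposited whole-number estimated counts per gene and transcript, and, beside them, TPM and FPKM, per the file headers. Counts of all 51826 genes equalled the sums over their transcripts. TPM was used for levels between genes, and TPM and FPKM (pseudocount 0.1) as alternatives.

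Library sizes were scaled by TMM (edgeR 4.0.16, R 4.3.3) on genes with at least 20 counts in at least 1 library, with factors of 0.993, 1.01 and 0.999 for WT, dE3 and cKO. Intervals are exact conditional binomial (Clopper-Pearson) at 95%, computed with scipy 1.17.1. Counts are not independent molecules, so intervals and floors of 3 counts cover counting error only. The calls were tested on simulated data with counting error only, so differences between embryos and the division of shared reads were not covered. DESeq2 1.42.0 size factors were an alternative.

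The members and lists were chosen with earlier results of these data known. Named were all members, transcripts with at least 10% of a gene's counts in any library, called pathway genes, the most abundant gene of each role and the 3 genes most like each called member. Other transcripts named were chosen after their values were seen. Gene spans are as deposited. Those of 8 of the 10 members equalled GENCODE vM21 (GRCm38), which gave transcript structures. Those of Ptk7 and Celsr1 differed. Of the 10 members 8 matched the RefSeq promoter table (GRCm38.p6).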

Additional observations from a re-analysis of the deposited data

How the results depend on the processing

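No paired analysis was possible because each genotype has 1 library, and no replicate could be left out. Leaving out the transcript that differed most reversed 3 log2 ratios: Ror2 to -5.56 for dE3 against WT and -6.06 for dE3 against cKO, which leaves Ror2-202 with 1 count in dE3, and Prickle1 to 4.50 for dE3 against WT, which leaves Prickle1-202. With it, 1 member (Ror2) was called lower in dE3 against WT and 1 in dE3 against cKO, where 0 were before. Ror2 in cKO against WT fell below 2-fold, at 0.50 on the log2 scale, and Vangl1 passed it, at 1.40, on its minor transcripts. Ror1 has a single transcript and could not be tested this way. At a fold threshold of 1.5, members called higher were 3 in place of 2 in dE3 against WT (Ptk7 added) and 2 in place of 0 in dE3 against cKO (Ror1 and Ror2). For the pathway list that threshold called 4 higher in place of 2 and 3 lower in place of 1 (dE3 against WT), 2 higher in place of 1 and 3 lower in place of 0 (cKO against WT), and 4 higher in place of 1 (dE3 against cKO). A minimum of 100 counts removes Prickle4, so that 0 list genes were lower in dE3 against WT, 0 higher in cKO against WT and 0 lower in dE3 against cKO. With TPM the first of these was 0, and 2 genes (Prickle4 and Wnt11) were higher in cKO against WT. Under DESeq2 size factors, library totals, TPM and FPKM, Ror1 and Ror2 kept their calls. Of 141 single log2 ratios recomputed, 110 kept their call and stayed within the counting interval or the called side, 26 uncalled ones (with TPM, FPKM or a transcript left out) moved outside the interval, 3 reversed, 1 lost and 1 gained a call.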

Other observations

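Transcripts under 10% of their gene were also called in the Celsr and Vangl1 genes, all on small counts. Celsr3-202 had 77 (WT), 33 (dE3) and 132 (cKO) counts, and was 2.56-fold lower in dE3 than in WT (1.68 to 3.97). Celsr3-205, which retains an intron, had 31, 41 and 9 counts and was 3.56-fold lower in cKO than in WT (1.65 to 8.5). Celsr2-205, a processed transcript, had 23, 41 and 51 counts and was 2.15-fold higher in cKO (1.29 to 3.68). Vangl1-205 had 7, 12 and 21 counts and was 2.90-fold higher in cKO (1.19 to 8.08).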
